A study of Mus musculus with 6 samples.

Results

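The genes described here are 10 members of the TGF-beta and activin system: the ligand genes Tgfb1, Tgfb2 and Tgfb3, the activin subunit genes Inhba and Inhbb, the receptor genes Tgfbr1 and Tgfbr2, the latent TGF-beta binding protein genes Ltbp1 and Ltbp2, and the target gene Tgfbi. They were taken by name from a fixed list, which was chosen with earlier results of these data known. All 10 were found among the 31053 mouse genes of the count matrices. Their levels were read in epithelial, stromal and myeloid cells of C3Tag mice across 3 disease states.

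The study profiled single cells of female C3Tag mice (model label C3TAG), which carry the SV40 large T antigen under the C3(1) promoter on the FVB/NJ background. Every library came from a transgene carrier, and no gland without the transgene was analysed here. Prepuberty libraries were made from whole mammary glands of mice aged 5 weeks, DCIS libraries from whole glands containing ductal carcinoma in situ at 14 weeks, and Tumor libraries from mammary tumors of mice older than 18 weeks. Each state had 2 libraries, so state, age, tissue and, by the study's methods, the dissociation of the tumors cannot be told apart. Those methods also give a later library kit for Tumor 2 alone, which the labels do not, so kit and library cannot be told apart there. The labels do not say that the libraries of a state came from different animals, so p-values measure the spread between libraries, which may be technical.

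TGF-beta is secreted in a latent complex, held in the extracellular matrix by latent TGF-beta binding proteins, and acts once it is released from its propeptide. Active TGF-beta binds the type II receptor, which recruits and phosphorylates the type I receptor, and receptor-activated SMAD proteins carry the signal to the nucleus. Activins are dimers of inhibin beta subunits that use related receptors and the same SMADs. In the mammary gland TGF-beta is known as an inhibitor of epithelial growth and as an inducer of matrix production by fibroblasts.

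The 6 libraries held 2548 to 4306 cells after filtering and 28512209 to 57143434 unique molecular identifiers (UMIs, each a counted transcript). Median depth was 6541 to 9035 UMIs per cell in Prepuberty and DCIS libraries, and 10671 and 13631.5 in the Tumor libraries. Pairs of libraries shared 9 to 39 cell barcodes. Cells were grouped into 23 clusters, and clusters were named by marker genes as epithelial-like (7526 cells), fibroblast-like (6276), endothelial-like (2261), macrophage-like (1212), myoepithelial-like (1118), T or NK-like (469), pericyte or smooth muscle-like (429) and Schwann-like (351). The remaining 1895 cells stayed unnamed. The epithelial-like class held 146 to 2830 cells per library, the fibroblast-like class 254 to 2106, the endothelial-like class 35 to 702 and the macrophage-like class 88 to 423. A transgene UMI was found in 2.05 to 27.8% of epithelial-like cells before the Tumor state and in 72.4 and 56.6% in the Tumor libraries. In the fibroblast-like class it was found in at most 0.621% of cells before the Tumor state but in 30.7 and 45.1% in the Tumor libraries, beside 6.33 and 0% of endothelial-like and 4.49 and 1.58% of macrophage-like cells there. The fibroblast results are therefore also given without the cells that held a transgene UMI.

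Levels by cell class are given as CPM, the UMIs of a gene per 1000000 UMIs of all cells of that class in a library. Most neighbouring classes overlapped in their ranges over libraries, and the order of classes is a description, since the classes were made from the same cells. Tgfb1 (chr7:25687002-25705077, plus strand, GRCm38), which encodes the most widely expressed TGF-beta ligand, was found in all classes. Its median over libraries was 127 CPM in T or NK-like, 106 in macrophage-like and 102 in endothelial-like cells, 73.0 in fibroblast-like and 38.4 in epithelial-like cells. Schwann-like cells held 0 to 8.55 CPM and were the only class separated from its neighbour in this order. Tgfb1 was thus spread over immune, vascular, stromal and epithelial cells.

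Tgfb2 (chr1:186622792-186705989, minus strand) and Tgfb3 (chr12:86056745-86079041, minus strand) encode the other TGF-beta ligands and had narrower distributions. Tgfb2 had a median of 57.8 CPM (range 5.86 to 97.4) in epithelial-like cells, 13.8 CPM (4.46 to 123) in fibroblast-like cells and at most 5.20 CPM in macrophage-like cells. Tgfb3 had a median of 21.7 CPM in myoepithelial-like and 20.4 CPM in epithelial-like cells, and 4.04 CPM (1.93 to 79.8) in fibroblast-like cells. The wide ranges of both ligands in fibroblast-like cells came from differences between states, described below.

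Inhba (chr13:16011851-16031621, plus strand) encodes the inhibin beta A subunit, whose homodimer is activin A, and Inhbb (chr1:119415465-119422248, minus strand) encodes the beta B subunit. Inhba was highest in pericyte or smooth muscle-like cells, with a median of 199 CPM (34.1 to 253). It followed in fibroblast-like cells at 88.1 CPM (3.27 to 457), macrophage-like cells at 66.6 CPM (5.20 to 128) and epithelial-like cells at 31.5 CPM (14.4 to 252). Inhbb was instead a gene of endothelial-like cells, at a median of 132 CPM (66.0 to 253), and of epithelial-like cells, at 58.4 CPM (29.9 to 144). It was at 0 in every T or NK-like sum, and a count of 0 allows up to 3 UMIs in a library.

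The receptor genes had lower medians in epithelial-like than in endothelial-like, fibroblast-like and macrophage-like cells. Tgfbr1 (chr4:47353222-47414931, plus strand), which encodes the type I receptor kinase, had medians of 33.3 CPM in macrophage-like, 31.3 in endothelial-like and 30.4 in fibroblast-like cells against 12.9 in epithelial-like cells. Tgfbr2 (chr9:116084293-116175360, minus strand), which encodes the ligand-binding type II receptor, had medians of 79.2 CPM (52.8 to 89.2) in endothelial-like and 72.0 CPM (23.2 to 251) in fibroblast-like cells against 20.2 CPM (13.2 to 40.2) in epithelial-like and 15.1 CPM (8.47 to 35.1) in pericyte or smooth muscle-like cells, the lowest of the 8 classes. Endothelial-like cells kept above the highest epithelial-like value in every library for Tgfbr2.

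The latent binding protein genes divided by class. Ltbp1 (chr17:75005568-75392512, plus strand) stood at 51.5 to 65.0 CPM in epithelial-like cells of all 6 libraries and at 12.9 to 53.1 CPM in fibroblast-like cells. Ltbp2 (chr12:84783212-84876532, minus strand), whose product is a matrix protein of the same family, had medians of 28.0 CPM in fibroblast-like and 23.0 CPM in myoepithelial-like cells against 5.23 in epithelial-like cells. Tgfbi (chr13:56609523-56639562, plus strand) encodes a secreted matrix protein first isolated as a TGF-beta-induced product. Its median was 113 CPM in macrophage-like cells, with a range of 18.7 to 641, and 17.9 CPM or less in every other class.

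**Figure D1:**
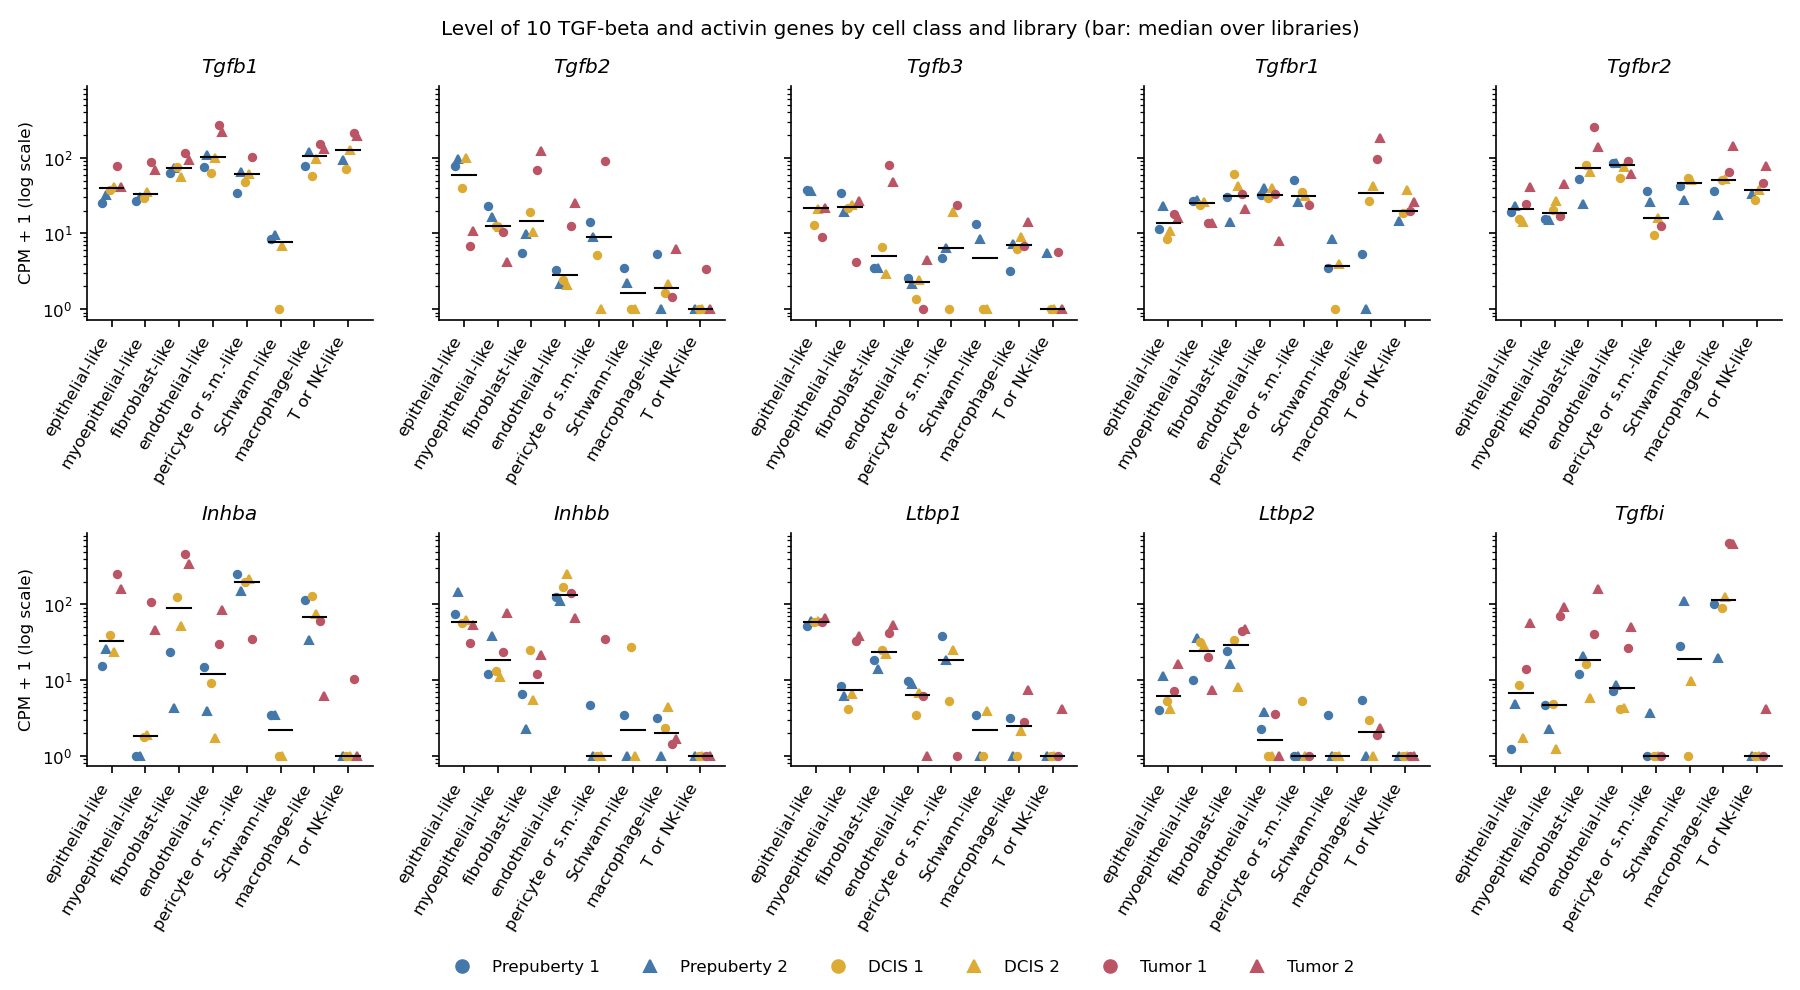
Level of each of the 10 genes as CPM + 1 (log axis) in each cell class, with one point per library coloured by disease state and a bar at the median over libraries. Tgfb2 and Ltbp1 have their highest medians in epithelial-like cells, Inhbb in endothelial-like cells and Tgfbi in macrophage-like cells.

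The promoters of Tgfb2 and Inhba are shown because these ligand genes changed in opposite directions in epithelial-like cells. Each is the 250 bases before the RefSeq gene start (GRCm38.p6), 5′ to 3′ on the gene's strand. RefSeq entries matched 9 of the 10 genes, all but Tgfb3. Capitals mark matches on either strand to a TATA box (TATAAA, in 12.4% of the 32851 promoters of the same length), an E-box (CACGTG, 6.02%), a SMAD box (CAGAC, 42.2%), an AP-1 site (TGANTCA, 6.75%) or a GC box (GGGCGG, 32.7%).
Tgfb2 promoter, chr1:186705990-186706239, minus strand: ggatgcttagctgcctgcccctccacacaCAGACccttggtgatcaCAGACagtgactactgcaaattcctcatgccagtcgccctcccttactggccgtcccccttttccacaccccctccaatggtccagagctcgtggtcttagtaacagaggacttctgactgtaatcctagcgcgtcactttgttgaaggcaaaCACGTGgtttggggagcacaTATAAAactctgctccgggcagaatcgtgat
Inhba promoter, chr13:16011601-16011850, plus strand: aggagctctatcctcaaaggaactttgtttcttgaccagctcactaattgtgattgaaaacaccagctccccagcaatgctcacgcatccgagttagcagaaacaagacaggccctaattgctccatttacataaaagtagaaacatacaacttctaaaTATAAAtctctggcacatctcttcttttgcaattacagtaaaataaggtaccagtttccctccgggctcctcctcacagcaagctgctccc
The Tgfb2 window held a TATA box 31 bases before the start, an E-box at 51 and SMAD boxes at 204 and 221. The Inhba window held a TATA box 91 bases before the start and none of the other motifs. Of the other members with an entry, none held a TATA box match, and Tgfb1 held 5 GC box matches. These are matches of letters and not mapped binding sites.

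State comparisons used the summed counts of a class in each library, scaled by edgeR's trimmed mean of M values (TMM), and the levels below are TMM-scaled CPM. A gene was called where the edgeR quasi-likelihood adjusted p over all genes tested in the class was under 0.05. For DCIS against Prepuberty no member was called by edgeR in any of the 5 classes tested. The share of all genes called in that comparison was 0.0% in epithelial-like, fibroblast-like and endothelial-like cells, 0.878% in pericyte or smooth muscle-like cells and 0.102% in macrophage-like cells. At an unadjusted p under 0.05 the members numbered 1 of 10 in epithelial-like cells, beside 12.7% of all genes at that threshold, 5 of 10 in fibroblast-like (9.92%), 1 of 8 in endothelial-like (10.9%), 0 of 6 in pericyte or smooth muscle-like (15.2%) and 1 of 5 in macrophage-like cells (10.5%). These were Tgfb3 in epithelial-like cells (log2 change -1.04, adjusted p = 0.389), Inhbb in endothelial-like cells (1.14, 0.365) and Tgfbr1 in macrophage-like cells (0.114). In fibroblast-like cells they were Inhba (2.99), Inhbb (2.26), Tgfbr1 (1.47), Tgfb2 (1.28) and Ltbp1 (0.79), with adjusted p of 0.493 to 0.497. DESeq2 called 2 members, Inhba in fibroblast-like cells (log2 change 3.04, adjusted p = 0.0422) and Tgfbr1 in macrophage-like cells (4.06, adjusted p = 0.044), beside 0.707% and 0.689% of all genes, and none in the other classes.

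In epithelial-like cells, the TGF-beta ligand gene Tgfb2 was lower in Tumor than in either earlier state, while the activin gene Inhba was higher and Inhbb lower in Tumor than in Prepuberty. Tgfb2 was at 84.3 and 93.8 CPM in the Prepuberty libraries, 42.4 and 112 in DCIS and 5.67 and 7.46 in Tumor. Both Tumor libraries lay below every earlier library. Tgfb2 was 11.8-fold lower in Tumor than in DCIS (log2 change -3.55, SE 0.50, adjusted p = 0.0337, edgeR) and 13.5-fold lower than in Prepuberty (-3.76, SE 0.50, adjusted p = 0.0228).

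Inhba in epithelial-like cells was at 15.7 and 24.2 CPM in Prepuberty, 42.3 and 26.2 in DCIS and 244 and 119 in Tumor. The states lay in ascending order without overlap, and Tumor was 9.26-fold above Prepuberty (log2 change 3.21, SE 0.48, adjusted p = 0.0268). Against DCIS the log2 change of Inhba was 2.41 (SE 0.46), and its adjusted p of 0.0522 missed the threshold. It passed with library totals in place of TMM (0.0412), with DESeq2 (6.79e-05), with no filter on low counts (5.45e-08), with the listed genes left out of clustering (0.0474), without Tumor 1 (1.80, 0.0403) and without Tumor 2 (2.82, 0.0106). Inhbb was at 80.4 and 142 CPM in Prepuberty, 60.9 and 70.9 in DCIS and 28.9 and 40.0 in Tumor, where it was 3.21-fold lower than in Prepuberty (-1.68, SE 0.36, adjusted p = 0.0411). The inhibin beta subunit genes thus moved in opposite directions between Prepuberty and Tumor.

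Of the 10 members, all tested in epithelial-like cells, 1 was called in Tumor against DCIS, where 1.39% of 13367 genes were called, and 3 in Tumor against Prepuberty, where 6.4% were. The median log2 change of the members was 0.40 against 0.08 over all genes in the first comparison and 0.12 against 0.09 in the second. The members that were not called included Tgfb1 (26.4 and 30.9 CPM in Prepuberty, 40.7 and 45.9 in DCIS, 73.4 and 30.2 in Tumor), whose Tumor libraries spanned the DCIS values. Tgfb3 was at 39.7 and 34.6 CPM in Prepuberty, 13.2 and 23.0 in DCIS and 7.63 and 15.7 in Tumor (Tumor against Prepuberty log2 change -1.67, adjusted p = 0.0638). Tgfbr2 lay at 15.3 to 30.5 CPM and Tgfbr1 at 8.08 to 21.7 CPM over the 6 libraries. Against DCIS the log2 change of Tgfbr2 was 0.76 and that of Inhbb -0.93, each with an adjusted p of 0.168. Ltbp1 stayed between 49.2 and 69.0 CPM and Ltbp2 between 3.32 and 11.5 CPM. Tgfbi was at 0.249 and 3.75 CPM in Prepuberty and 12.7 and 42.0 in Tumor (4.41, adjusted p = 0.105), and its spread within states was as wide as the steps between some of them.

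Each of these epithelial calls was lost in some alternative, always with its direction kept. The Tgfb2 call against DCIS was lost without Prepuberty 1 (adjusted p = 0.0822), without Prepuberty 2 (0.0851) and without DCIS 2 (log2 change -2.70, 0.135), its value was -4.15 without DCIS 1 (0.0472), and the call against Prepuberty without either Prepuberty library (0.0893 and 0.0978). The Inhba call was lost without Prepuberty 1 (0.126) or Prepuberty 2 (0.109). The Inhbb call was lost when any one library other than Tumor 2 was left out (adjusted p from 0.0608 without Tumor 1 to 0.169 without Prepuberty 2). The Tgfb2 call against DCIS was also lost with only the libraries of the 2 states (0.0813) and with the replicate block (0.0569), and the Inhbb call with library totals (0.0816) and with only the 2 states (0.0793). Clustering without integration of the libraries put 320 Tumor 2 cells in the epithelial-like class in place of 1372, and no epithelial call was kept (Tgfb2 in Tumor against DCIS -1.88, adjusted p = 0.234).

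In fibroblast-like cells the direction of Tgfb2 was the opposite, and Tgfb3 and Inhba were also higher in Tumor. Tgfb2 was at 4.85 and 9.19 CPM in Prepuberty, 22.8 and 11.6 in DCIS and 59.4 and 81.0 in Tumor, with no overlap between states. It was 4.13-fold higher in Tumor than in DCIS (log2 change 2.05, SE 0.48, adjusted p = 0.0331) and 3.33 higher on the log2 scale than in Prepuberty (SE 0.50, adjusted p = 0.0121). Tgfb3 was at 2.75 and 2.54 CPM in Prepuberty, 6.97 and 2.36 in DCIS and 70.2 and 30.6 in Tumor. Prepuberty and DCIS overlapped and Tumor stood apart, 11.1-fold above DCIS (3.48, SE 0.62, adjusted p = 0.0167) and 4.24 above Prepuberty on the log2 scale (SE 0.63, adjusted p = 0.0116).

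Inhba in fibroblast-like cells was at 24.2 and 3.36 CPM in Prepuberty, 158 and 61.7 in DCIS and 402 and 224 in Tumor. It was 22.7-fold higher in Tumor than in Prepuberty (log2 change 4.5, SE 0.96, adjusted p = 0.0312), and 91.2-fold without Prepuberty 1 (6.51, adjusted p = 0.0374) or 12.4-fold without Prepuberty 2 (3.63, 0.104), so the size depends on that state's libraries. The change from Prepuberty to DCIS was 2.99 and that from DCIS to Tumor 1.52, and neither was called (adjusted p = 0.493 and 0.25). Its values were in ascending order over the states, and of the 3 comparisons only Tumor against Prepuberty passed in the main edgeR fit. The change from Prepuberty to DCIS passed with DESeq2 (3.04, adjusted p = 0.0422) and in edgeR with no filter on low counts (2.94, 9.32e-08). That from DCIS to Tumor passed in edgeR with the replicate number as a block (1.66, 0.0465).

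The members called in fibroblast-like cells were 2 of 10 in Tumor against DCIS, where 13.5% of 12156 genes were called, and 3 of 10 in Tumor against Prepuberty, where 8.72% were. Their median log2 change was 0.65 against 0.13 over all genes in the first comparison and 1.82 against 0.02 in the second. Tgfb1 stayed at 61.1 to 101 CPM over all 6 libraries. The receptor genes were not called: Tgfbr2 was at 55.1 and 23.8 CPM in Prepuberty, 100 and 78.8 in DCIS and 221 and 90.7 in Tumor (Tumor against Prepuberty 1.98, adjusted p = 0.0681). Tgfbr1 was at 31.6 and 13.4 CPM in Prepuberty, 74.4 and 50.8 in DCIS and 28.0 and 13.3 in Tumor (Tumor against DCIS -1.61, adjusted p = 0.0836), so its highest values were those of DCIS. In this class same-numbered libraries deviated together for each pair of states (correlation 0.11 to 0.44), and a fit with the replicate number as a block called 3 more changes on members. These were Tgfbr1 (-1.68, adjusted p = 0.0168) and Inhba (1.66, 0.0465) in Tumor against DCIS and Tgfbr2 (1.97, 0.0134) in Tumor against Prepuberty, which makes 4 of 10 members in each comparison, beside 18.8% and 12.3% of all genes called in that fit. Ltbp1 was at 13.3 to 30.5 CPM before the Tumor state and 36.1 and 35.1 in Tumor (1.14 against Prepuberty, adjusted p = 0.0731). Inhbb (1.33 to 30.5 CPM) and Ltbp2 (8.66 to 40.7 CPM) overlapped across states. Tgfbi was at 5.78 to 20.3 CPM before the Tumor state and 35.2 and 105 in Tumor (2.51 against DCIS, adjusted p = 0.0569, and 2.13 against Prepuberty, 0.102).

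The fibroblast calls were kept when cells with a transgene UMI were left out. A missing UMI does not show that a cell lacks transgene expression. Even in Tumor epithelial-like cells a UMI was found in only 72.4 and 56.6%, so the remaining sums may still hold such cells. Without those cells the plain CPM of Tgfb2 was 72.7 and 104 in the Tumor libraries, that of Tgfb3 91.5 and 48.1 and that of Inhba 427 and 394. The log2 changes in Tumor against DCIS were then 2.00 for Tgfb2 (adjusted p = 0.0357) and 3.69 for Tgfb3 (0.0186), and Inhba was 4.54 above Prepuberty (0.0312). Tgfbr2 passed the threshold in that setting (2.5 against Prepuberty, 0.0401), with 352 and 199 CPM in the Tumor libraries against 23.2 to 80.0 before. Summed markers of epithelial cells (7 genes, none at 0) were at 575 and 153 CPM in Tumor fibroblast-like sums against 16.9 to 84.0 before, and those of myoepithelial cells (6 genes, 2 and 1 at 0) at 1095 and 406 against 13.2 to 40.8.

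Single libraries ended several fibroblast calls. The Tgfb2 call in Tumor against DCIS was lost without DCIS 1 (adjusted p = 0.0971), DCIS 2 (0.223) or Tumor 2 (0.123), and the Tgfb3 call without DCIS 2 (2.83, 0.122). The log2 change of Tgfb3 against DCIS was 4.37 without DCIS 1 and 2.73 without Tumor 1, and that against Prepuberty was 3.49 without Tumor 1, all 3 still called. Against Prepuberty, the calls were lost without Prepuberty 1 for Tgfb2 (0.0715) and Tgfb3 (0.0786), without Prepuberty 2 for Tgfb2 (0.0619), Tgfb3 (0.101) and Inhba (0.104), and without Tumor 1 (0.0508) or Tumor 2 (0.0614) for Inhba. The Inhba call was also lost without integration (4.18, 0.0665). In that clustering, 189 of the 229 Tumor 2 fibroblast-like cells lay in a cluster led by H19, Brinp3 and Mmp13. That cluster held 0 or 1 cells of each other library, and 52.4% of its cells had a transgene UMI. The part of these cells in the fibroblast results was not tested.

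**Figure D2:**
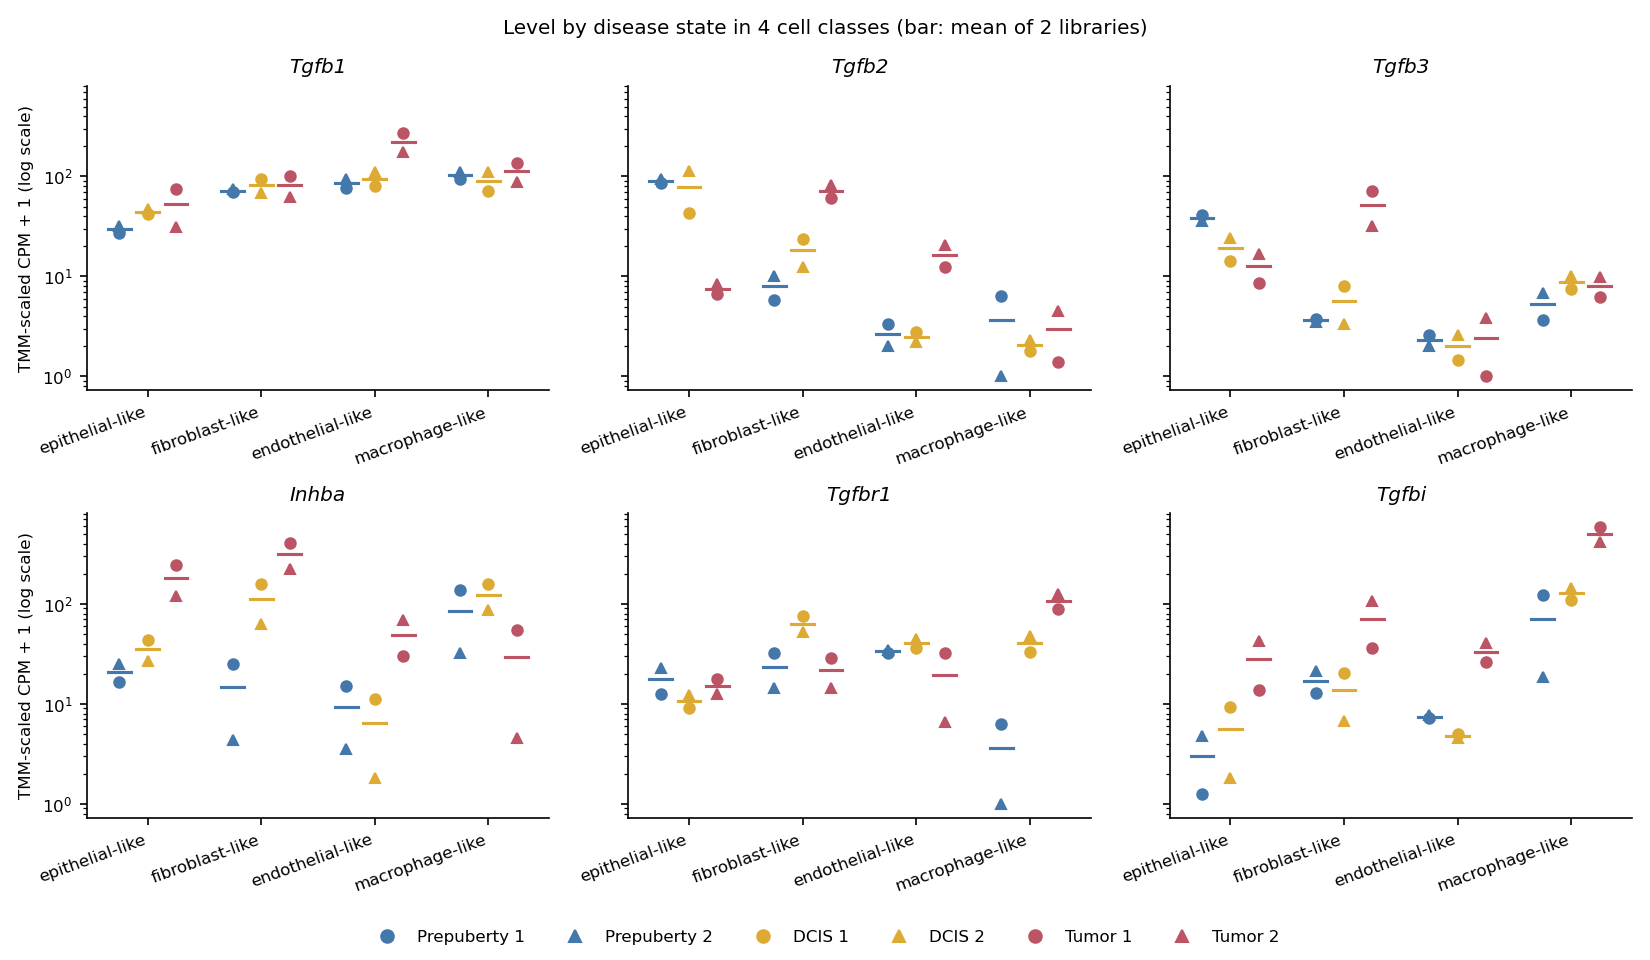
TMM-scaled CPM + 1 (log axis) of Tgfb1, Tgfb2, Tgfb3, Inhba, Tgfbr1 and Tgfbi by disease state in epithelial-like, fibroblast-like, endothelial-like and macrophage-like cells, one point per library and a bar at the mean of the 2 libraries of a state. Tgfb2 lies at 5.67 and 7.46 CPM in Tumor epithelial-like cells and at 59.4 and 81.0 in Tumor fibroblast-like cells.

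In endothelial-like cells, Tgfb1 and Tgfbi were higher in Tumor, and so was Tgfb2, which passed the filter on low counts only through its Tumor libraries. Tgfbi was at 6.29 and 6.67 CPM in Prepuberty, 4.0 and 3.59 in DCIS and 25.3 and 39.3 in Tumor, from 9 to 52 UMIs per library. Tumor was 8.14-fold above DCIS (log2 change 3.02, SE 0.45, adjusted p = 0.00628) and 2.25 above Prepuberty on the log2 scale (adjusted p = 0.01), and both calls were kept in every alternative run. Tgfb1 was at 75.9 and 93.6 CPM in Prepuberty, 78.7 and 109 in DCIS and 270 and 174 in Tumor, 2.41-fold above DCIS (1.27, SE 0.31, adjusted p = 0.0319). Tgfb2 rested on 3 to 13 UMIs per library, at 1.03 to 2.34 CPM before the Tumor state and 11.4 and 19.6 in Tumor (3.28 against DCIS, SE 0.76, adjusted p = 0.0267). Its earlier levels were too low for the filter, so its calls rest on the group where it is high.

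Inhbb, which was highest in this class by level, was at 127 and 95.9 CPM in Prepuberty, 213 and 279 in DCIS and 138 and 53.3 in Tumor. Its change in Tumor against DCIS missed the threshold (log2 change -1.30, adjusted p = 0.0693) and passed it with DESeq2 (-1.33, 0.0411), with the replicate block (-1.38, 0.0451), with thinned sums (-1.55, 0.0225), without Tumor 1 (-2.27, 0.0221) and with no filter on low counts (-1.39, 0.00108). The receptor genes differed less than their spread: Tgfbr2 lay at 47.7 to 88.5 CPM in all libraries and Tgfbr1 at 31.5 to 43.5 CPM except for 5.61 in Tumor 2, a sum of 35 cells. Inhba lay at 0.798 to 14.2 CPM before the Tumor state and at 29.1 and 67.4 in Tumor (3.07 against DCIS, adjusted p = 0.0889, and 2.47 against Prepuberty, 0.133). Without integration the direction of its change against Prepuberty reversed. Ltbp1 lay at 0 to 8.81 CPM. In all, 3 of the 8 members tested were called in Tumor against DCIS, where 13.2% of 10468 genes were called. The same number was called against Prepuberty, where 11.7% of genes were. Both counts include Tgfb2, which was let into the test by its Tumor libraries. Tgfb3 and Ltbp2 did not pass the filter on low counts. The median log2 changes of the tested members were 0.60 against -0.02 over all genes and 0.62 against -0.02.

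The endothelial sums differed in make-up between states. Summed fibroblast markers (6 genes, 3 of them at 0 in Tumor 2) were at 226 and 176 CPM in Prepuberty, 46.8 and 52.3 in DCIS and 233 and 268 in Tumor, and their part in the results was not tested. A cluster led by Ackr1, Selp and Vwf held 255 and 169 of the DCIS cells and 7 and 5 of the Tumor cells. Within the other cluster, led by Gpihbp1, Cldn5 and Cdh5, plain CPM of Tgfbi was 0.814 and 0 in DCIS against 19.1 and 36.0 in Tumor, that of Tgfb2 was 1.63 and 0.633 against 12.3 and 25.2, and that of Tgfb1 was 79.8 and 121 against 281 and 223. The higher Tumor levels of all 3 genes were thus also present within one cluster of the integrated data, where no test was run. Without integration, 66 and 15 Tumor cells formed a cluster led by Igfbp3, Kcne3 and Esm1 with 0 cells of the earlier states. The cluster led by Cyp1a1, Cldn5, Cfd and Gpihbp1 then held 4 and 11 Tumor cells. The Tgfb1 call against DCIS was lost without DCIS 1 (adjusted p = 0.228), DCIS 2 (0.0943) or Tumor 1 (0.131), and against Prepuberty without Prepuberty 1 (0.138), Prepuberty 2 (0.0817) or Tumor 1 (0.102). The Tgfb2 call against DCIS was lost when any one DCIS or Tumor library was left out (0.0628 to 0.143), and that against Prepuberty when any one Prepuberty or Tumor library was (0.0589 to 0.144; log2 change 3.78 without Prepuberty 1 in place of 3.14).

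Pericyte or smooth muscle-like cells had a Tumor arm of 1 library with 19 cells, which was assumed to vary like the other groups. Inhba was at 246 and 128 CPM in Prepuberty, 219 and 236 in DCIS and 34.1 in Tumor 1, the last from 3 UMIs. Its ratio was 6.72-fold lower in Tumor than in DCIS, with a 95% counting interval of 2.25 to 33.1, and the change was not called (adjusted p = 0.0517). It passed in 8 alternatives, at adjusted p of 0.00028 with the replicate block to 0.0347 with thinned sums, each with the same lone Tumor library and its 3 UMIs. Tgfb2 had 1 UMI in the DCIS libraries together and 8 in Tumor 1, a ratio of 47.2 with a counting interval of 6.33 to 2094. It passed the filter on low counts only through Tumor 1, the library where it is high. The fit has no Tumor spread in this class, took it from the other libraries and gave an adjusted p of 0.0409 (log2 change 5.34). That was 1 of 6 members tested, beside 4.75% of 5353 genes, and 0 of 6 were called against Prepuberty, beside 3.89% of genes (0 by DESeq2). At an unadjusted p under 0.05 they were 2, Inhba (-2.45) and Tgfb2 (3.22), beside 17.2% of genes. The Tgfb2 call was lost without DCIS 2 (4.22, 0.0946), with a mitochondrial limit of 5% (5.26, 0.0625) and without integration (1.42, 0.229), and without DCIS 1 the DCIS arm is at 0 UMIs and gives no fold. Of the other members tested, Tgfb1 was at 32.3 to 65.5 CPM before the Tumor state and 102 in Tumor 1, Tgfbr1 at 21.9 to 48.5 and 22.7, Tgfbr2 at 9.33 to 34.1 and 11.4, and Ltbp1 at 4.67 to 35.9 and 0. In that same Tumor sum the markers of fibroblasts (6 genes, 1 at 0) were at 5247 CPM against 203 to 936 in the other libraries. Their part in the result was not tested.

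In macrophage-like cells the receptor gene Tgfbr1 and the target gene Tgfbi were higher in Tumor than in Prepuberty. Tgfbr1 was at 5.32 and 0 CPM in Prepuberty (2 and 0 UMIs), 32.1 and 46.8 in DCIS (40 and 36 UMIs) and 87.7 and 124 in Tumor (219 and 282 UMIs), with the states in order and not overlapping. The ratio of Tumor to Prepuberty was 46.6, with a counting interval of 12.8 to 385, and the call was kept in all alternatives run (adjusted p = 0.00276). Its fitted log2 change went from 5.48 to 4.31 without Prepuberty 2, the library with no UMI, and without Prepuberty 1 the earlier state is at 0 and gives no fold. The ratio of DCIS to Prepuberty was 16.7 (interval 4.47 to 140), and its adjusted p was 0.114.

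Tgfbi in macrophage-like cells was at 122 and 17.6 CPM in Prepuberty, 109 and 144 in DCIS and 582 and 420 in Tumor. Tumor was 7.39-fold above Prepuberty (log2 change 2.89, SE 0.67, adjusted p = 0.0331), 28.0-fold without Prepuberty 1 (4.80, adjusted p = 0.00503) and 4.15-fold without Prepuberty 2 (2.05, 0.102). The change against DCIS was 2.00 (adjusted p = 0.0787). Inhba was at 136 and 31.4 CPM in Prepuberty, 159 and 85.8 in DCIS and 53.3 and 3.52 in Tumor (-2.10 against DCIS, adjusted p = 0.175), so its lowest value was in Tumor 2. Tgfb1 stayed at 69.7 to 136 CPM, and Tgfbr2 at 15.7 to 95.1 CPM (1.45 in Tumor against Prepuberty, adjusted p = 0.11). The tested members called were 0 of 5 in Tumor against DCIS, where 6.32% of 7835 genes were called, and 2 of 5 in Tumor against Prepuberty, where 5.83% were. In the first of these, DESeq2 called 0, and 3 members had an unadjusted p under 0.05, beside 25.9% of genes: Tgfbi, Inhba and Tgfbr1 (1.45, adjusted p = 0.0778). The other 5 members did not pass the filter on low counts.

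The Tgfbi call in macrophage-like cells was also lost without DCIS 1 (adjusted p = 0.0674) or DCIS 2 (0.0531). Clustering without integration divided these cells largely by state. One cluster, led by Pf4, Ccl4 and Ms4a6d, held 98, 78, 235 and 163 of the earlier cells and 58 and 42 of the Tumor cells, and the other, led by C1qa, C1qc and C1qb, held 0, 3, 5 and 6 earlier and 340 and 106 Tumor cells. Within the first cluster the plain CPM of Tgfbr1 was 4.40 and 0 in Prepuberty and 57.3 and 273 in Tumor, and that of Tgfbi was 101 and 21.2 against 328 and 212, with no test run there. In the DCIS cells of that cluster Inhba had 138 and 78.8 CPM, and in the Tumor cells 167 and 7.43, so the Tumor libraries lay on both sides of the DCIS values, and in the other cluster it was at 22.0 and 3.09 in Tumor. Summed neutrophil markers (5 genes, none at 0 in Tumor) were at 914 and 4896 CPM in the Tumor macrophage-like sums against 40.7 to 343 in the other libraries, and their part in these results was not tested.

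**Figure D3:**
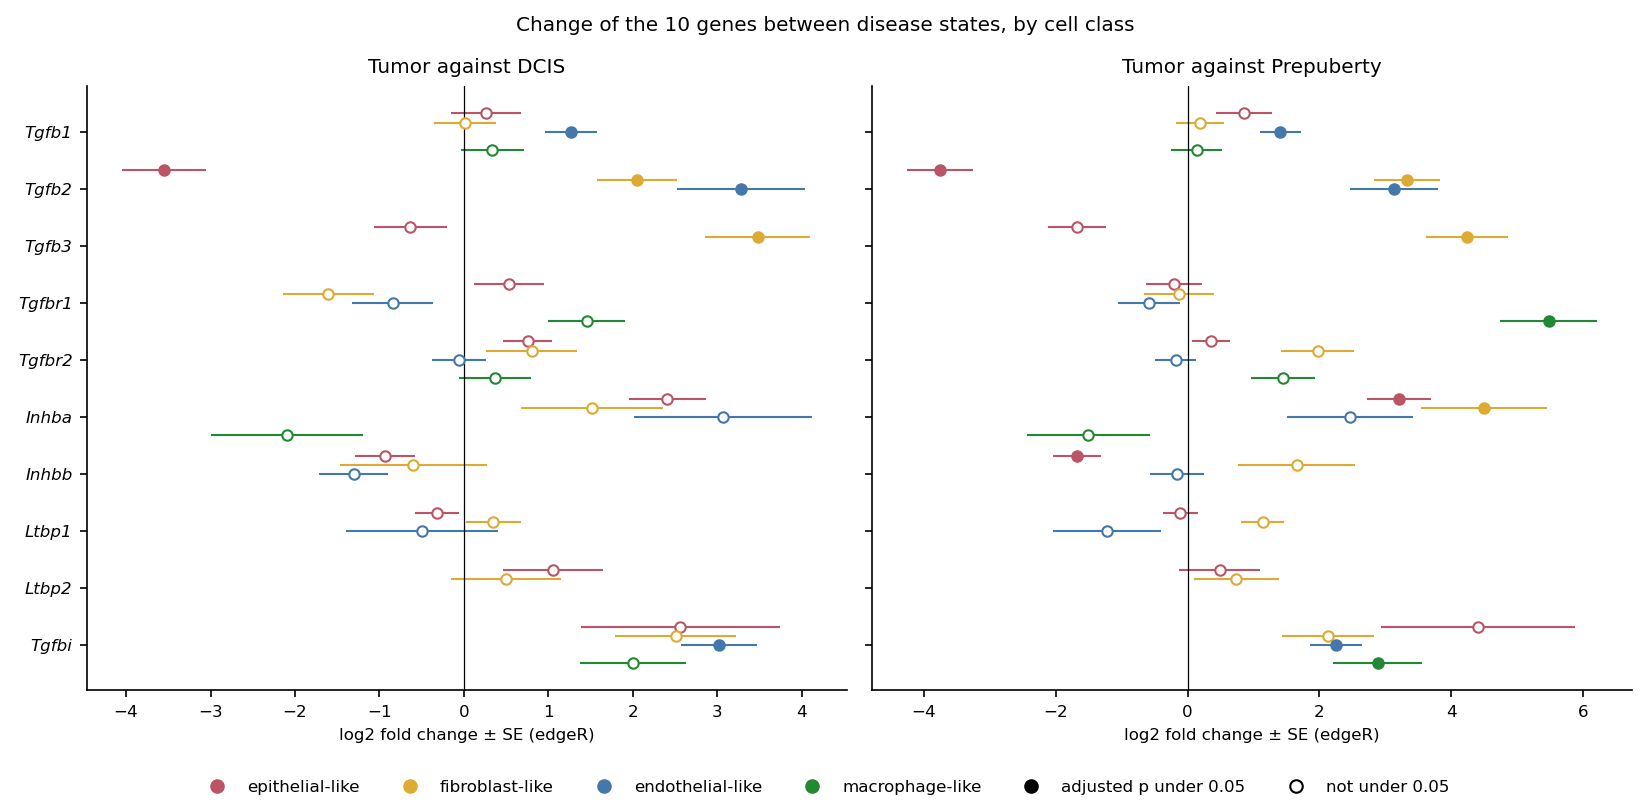
Log2 change of each tested member, with its standard error, for Tumor against DCIS and Tumor against Prepuberty in the 4 tested classes with 2 libraries in every state. Filled points passed an adjusted p under 0.05 (edgeR).

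The difference between classes in the change from DCIS to Tumor was tested in one edgeR fit of the epithelial-like, fibroblast-like and macrophage-like sums. Tgfb2 differed between classes: its change was 5.46 higher on the log2 scale in fibroblast-like than in epithelial-like cells (SE 0.74, adjusted p = 0.00107). The call was kept in every alternative run, at 6.64 without DCIS 1 and 4.19 without DCIS 2. The change of Tgfb3 was 4.14 higher in fibroblast-like than in epithelial-like cells (SE 0.80, adjusted p = 0.00667), a call lost without DCIS 2 (2.95, 0.165) and kept without the other libraries, at 2.90 without Tumor 1 to 5.37 without DCIS 1 (5.15 without Tumor 2). These were 2 of 10 members, beside 8.28% of 13745 genes.

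Inhba changed differently in macrophage-like cells. Its log2 change was 4.77 lower there than in epithelial-like cells (difference -4.77, SE 0.98, adjusted p = 0.0245), and it also lay below that of fibroblast-like cells (difference -4.0, SE 0.98, adjusted p = 0.034). Both calls were lost without DCIS 1 (0.233 and 0.239) or DCIS 2 (0.307 and 0.318), and their differences were -6.92 and -6.15 without Tumor 1 and -3.93 and -2.98 without Tumor 2. Without integration the first was -5.04 (0.0522) and the second -4.60 (0.0387), and within the cluster shared by all states there, Inhba in Tumor 1 macrophage-like cells was not below DCIS. The change of Tgfbr1 was 3.27 higher in macrophage-like than in fibroblast-like cells (SE 0.71, adjusted p = 0.0211), and was lost without DCIS 1 (2.67, 0.284), DCIS 2 (0.201) or Tumor 2 (2.50, 0.0655) and without integration (2.75, 0.0879), and stood at 3.98 without Tumor 1. The members called were 1 of 10 for macrophage-like against epithelial-like cells and 2 of 10 against fibroblast-like cells, beside 3.22% and 4.48% of genes. Without cells that held a transgene UMI the 2 calls between macrophage-like and fibroblast-like cells fell just past the threshold (0.0571 for Inhba and 0.0511 for Tgfbr1).

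Within the classes, the clusters that made up the sums shifted between states. In epithelial-like cells, a cluster led by Tph1 and the hormone-sensing luminal markers Cited1 and Prlr went from 137 and 306 cells in DCIS to 6 and 41 in Tumor, and one led by Pthlh, Aqp3 and Acan from 64 and 65 to 941 and 373. The low level of Tgfb2 was found in each epithelial-like cluster of the tumors: in plain CPM, clusters with at least 10 cells in a library held 0 to 20.7 in Tumor and 13.4 to 190 before. The cluster led by Ccl20, Aldh1a3 and Edn1 had the highest values before the Tumor state, at 154 and 179 CPM in Prepuberty and 67.9 and 190 in DCIS, and held 7.90 and 16.0 in Tumor. A secretory cluster led by Ltf, Csn3 and Wfdc18 went from 52.4 and 135 in DCIS to 5.67 and 20.7.

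Inhba in Tumor epithelial-like cells ranged more widely by cluster. It was at 467 and 267 CPM in the cluster led by Pthlh and Aqp3, where Inhba is itself among the leading genes, 196 and 180 in the cluster led by Ccl20, 157 and 105 in the cycling cluster led by Cenpf and Ube2c, and 39.2 and 56.5 in the secretory cluster. All of these exceeded the values of the same cluster in both DCIS libraries, which were 1.13 to 76.7. The cycling cluster was kept in the class by a marker limit set after its markers had been seen.

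Fibroblast-like clusters divided the ligands in the Tumor libraries, where Tgfb2 and Tgfb3 were highest in a cluster led by the matrix genes Col1a1, Postn, Cthrc1 and Mmp11. In Prepuberty that cluster held Tgfb2 at 3.24 and 5.00 CPM, the lowest of the fibroblast-like clusters in both libraries. There Tgfb2 went from 37.7 and 20.4 CPM in DCIS to 103 and 232 in Tumor, and Tgfb3 from 12.6 and 6.51 in DCIS to 150 and 91.5 in Tumor. Inhba in Tumor was highest instead in a cluster led by Ccl2, Ccl7, Cxcl5 and Mmp3, at 719 and 539 CPM against 89.0 and 75.3 in DCIS, while the matrix cluster held 421 and 202 against 331 and 146. A transgene UMI was found in 64.0 and 44.0% of the Tumor cells of the cluster led by Ccl2 and in 19.6 and 58.0% of those of the matrix cluster. Without those cells, Inhba in Tumor was at 1212 and 688 CPM in the first (27 and 56 cells), and in the matrix cluster (82 and 50 cells) Tgfb2 was at 77.4 and 230, Tgfb3 at 146 and 113 and Inhba at 364 and 214. Tgfb2 in Tumor 1 was then at 83.2 CPM in the cluster led by Rarres2 and Col3a1 (51 cells), above the matrix cluster, and at 47.5 there in Tumor 2. Tgfbr2 in Tumor was highest in a cluster led by Pi16 and Dpt, at 768 and 711 CPM from 19 and 14 cells, against 33.5 and 34.3 in DCIS.

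**Figure D4:**
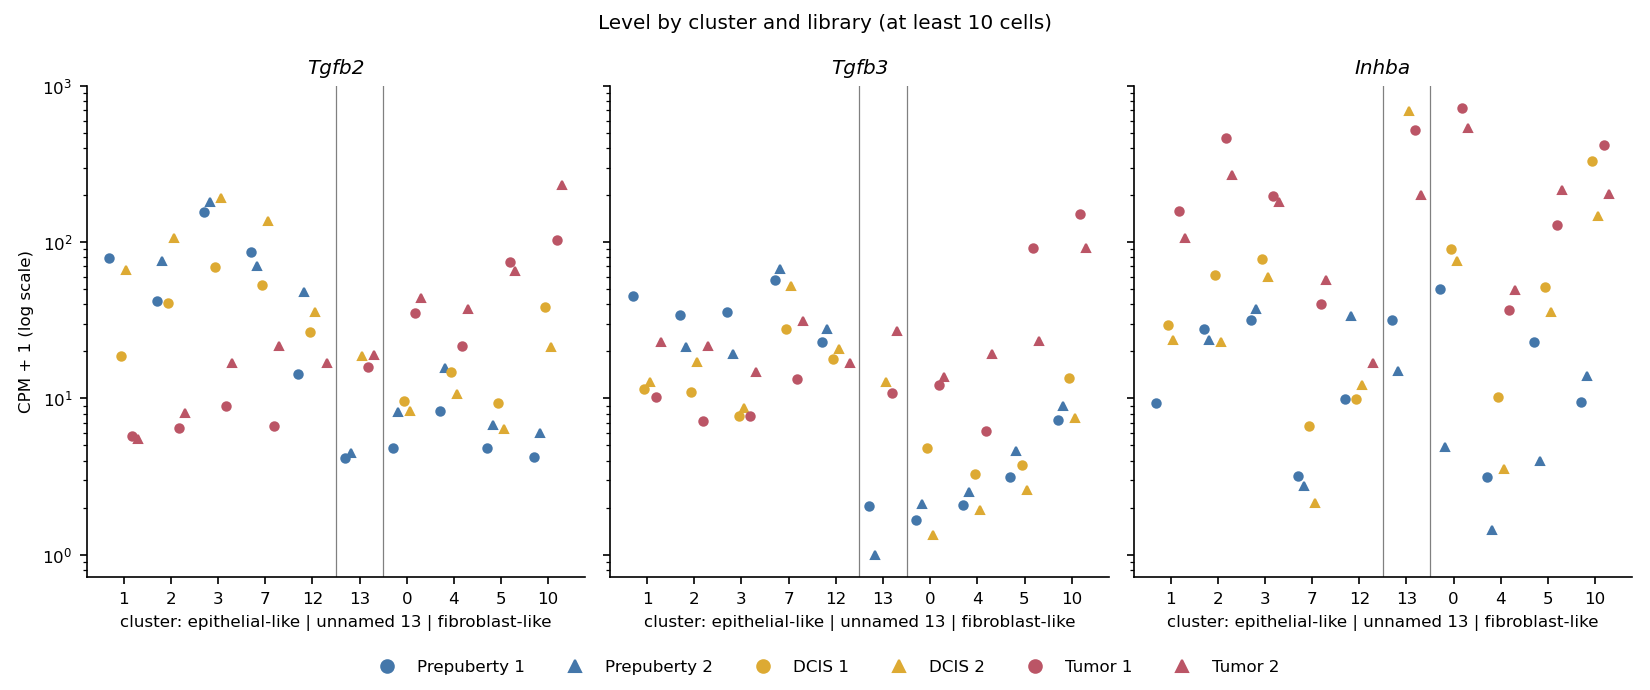
Plain CPM + 1 (log axis) of Tgfb2, Tgfb3 and Inhba in clusters of at least 10 cells, one point per library coloured by state: epithelial-like clusters 1 (led by Cenpf), 2 (Pthlh), 3 (Ccl20), 7 (Ltf) and 12 (Tph1), unnamed cluster 13 (Npy), and fibroblast-like clusters 0 (Ccl2), 4 (Pi16), 5 (Col3a1) and 10 (Col1a1). In Tumor, Tgfb2 stays at or under 20.7 CPM in the epithelial-like clusters and reaches 232 in the cluster led by Col1a1.

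The state changes were also visible as the share of cells with a UMI, which depends on depth. Inhba was found in 13.1 to 22.0% of epithelial-like cells before the Tumor state and in 49.0 and 55.0% in Tumor, and in 1.94 to 18.9% and then 56.3 and 64.0% of fibroblast-like cells. When every cell was thinned to 3000 UMIs, leaving out 18 to 279 shallower cells per library and class, the shares were 3.59 to 9.58% and 26.3 and 23.9% in epithelial-like cells, and 1.15 to 12.6% and 37.8 and 36.5% in fibroblast-like cells. Tgfb2 at that fixed depth was found in 9.33 to 20.1% of epithelial-like cells before the Tumor state and in 1.63 and 3.08% in Tumor. In fibroblast-like cells it was found in 1.45 to 4.32% before and in 16.1 and 21.6% in Tumor. T or NK-like cells, which served as background, held Inhba in 0 to 2.29% and Tgfb2 in 0 to 0.571% of unthinned cells, at a median of 1221 to 2526 UMIs against 6877 to 17037 in the other classes named here.

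Myoepithelial-like cells were described without a test. Inhba was at 0, 0, 0.774 and 0.898 plain CPM in the Prepuberty and DCIS libraries and at 108 and 45.0 in Tumor, and Tgfbi at 0.224 to 3.87 before and 69.8 and 91.6 in Tumor. In the Tumor libraries this class held 30 and 60 cells, of which 46.7 and 45.0% had a transgene UMI, against at most 0.535% before. Acta2, a defining marker of these cells, was at 3232 to 7380 CPM before the Tumor state and had no UMI in the Tumor cells, and without integration this class held 0 cells of either Tumor library. The Tumor values therefore belong to cells placed in the class by the integrated clustering and lacking one of its markers.

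The rest of the pathway was read from 4 lists covering other receptors (8 genes), SMADs and their regulators (12), latency, activation and extracellular inhibitors (13), and TGF-beta target genes (19). For DCIS against Prepuberty no listed gene was called in any class. Pmepa1, a TGF-beta-induced inhibitor of SMAD signaling, was higher in Tumor than in DCIS in fibroblast-like (log2 change 2.37), endothelial-like (2.23) and macrophage-like cells (2.16), with adjusted p of 0.0229, 0.00812 and 0.0244. In pericyte or smooth muscle-like cells it had 2 and 1 UMIs in DCIS, 11 and 23 in Prepuberty and 10 in the lone Tumor library.

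In epithelial-like cells, 2 of 19 target genes were called in Tumor against DCIS, beside 1.39% of all genes, and both fell, the contractile genes Acta2 (-4.51) and Tagln (-3.93). Both genes are among the leading genes of the myoepithelial-like cluster. Summed myoepithelial markers (6 genes, Acta2 among them, 3 at 0 in Prepuberty 2 and none elsewhere) were at 233 to 1047 CPM in these sums before the Tumor state and at 1456 and 2571 in Tumor, and their part in the result was not tested. No gene of the other lists was called there. Against Prepuberty, where 6.4% of genes were called, Fn1 (3.30), which encodes fibronectin, and the cell cycle inhibitor gene Cdkn2b (3.01) rose, and Tagln (-5.67), Acta2 (-4.24) and Ctgf (-2.54) fell. The TGF-beta co-receptor gene Tgfbr3 (-2.04) and the activators Itgb6 (-2.48) and Thbs1 (-2.15) also fell. The target genes therefore did not share a direction in these cells, and their median log2 change was 0.57 against DCIS and 0.04 against Prepuberty.

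In fibroblast-like cells, 1 of 19 target genes was called in Tumor against DCIS, beside 13.5% of all genes (Bhlhe40, a transcription factor gene, 1.77), and 4 against Prepuberty, beside 8.72% of genes, all upward: Ctgf (5.30), Nox4 (3.33), Lox (3.11), which encodes a collagen crosslinking enzyme, and Bhlhe40 (1.79). The SMAD co-repressor gene Ski rose in both comparisons (1.38 in each), and its relative Skil (1.44), Pmepa1 (3.07) and Fstl3 (1.77), which encodes an activin-binding inhibitor, rose against Prepuberty. The receptor genes Acvr1b (-2.23) and Tgfbr3 (-1.24) fell against DCIS. The median log2 change of the target genes was 1.36 and 1.82, beside 0.13 and 0.02 over all genes.

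Endothelial-like cells had 5 of 19 target genes rising and 1 falling in Tumor against DCIS, beside 13.2% of all genes called and in the sums whose fibroblast markers were higher in Tumor than in DCIS, among them Nox4 (4.48), Adam12 (3.90), Fn1 (3.08) and Cthrc1 (2.84) upward and Tagln (-2.42) downward. Nox4, with 8 UMIs in the DCIS libraries and 9 in the Prepuberty libraries, passed the filter on low counts only through Tumor. Tgfbr3 (-3.51) and Lrrc32 (-3.51), whose product holds latent TGF-beta at the cell surface, fell. The SMAD co-repressor gene Tgif1 (-1.45) also fell, while Ski rose (1.19). Against Prepuberty, beside 11.7% of all genes, 6 of 19 target genes rose, among them Nox4 (5.67), Cdkn2b (3.43), Ctgf (3.19), Cthrc1 (3.0) and Adam12 (3.0). Of the other lists, Pmepa1 (2.21), the pseudoreceptor gene Bambi (2.14), Ski (1.10) and Nrros (1.35) rose, and Tgfbr3 (-3.26), Lrrc32 (-2.93), Tgif1 (-1.07) and the proprotein convertase gene Furin (-1.0) fell. In pericyte or smooth muscle-like cells 7 of 12 tested target genes were higher past the threshold in the lone Tumor library of 19 cells, which gives no Tumor spread, beside 4.75% of genes, in the sum whose fibroblast markers, Col1a1 among them, were raised. In macrophage-like cells, 1 of 10 tested target genes was called against DCIS, beside 6.32% of genes, Cdkn2b (-2.06), and Lrrc32 (-3.67) and Thbs1 (-2.76) fell. Against Prepuberty, beside 5.83% of genes, 1 of 10 tested target genes, Fn1 (5.09), and 2 of 10 tested SMAD genes and regulators, Pmepa1 (4.80) and the inhibitory SMAD gene Smad7 (2.37), rose.

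Across 39 sums of a class in a library, drawn from 8 classes and each of at least 50 cells, the genes whose log2(CPM + 1) followed each member most closely were listed as a description. For Tgfb1 they were Casp8 (Pearson r 0.87) and Crlf2 (0.85), for Tgfb2 Irx1 and Ltbp3 (0.78 each), and for Tgfb3 Tfap2a (0.75) and Echdc2 (0.74). Extl3 was among those for Tgfbr1 (0.72) and Nrp1 among those for Tgfbr2 (0.65). Inhba was followed by Tnfaip2 and Ptgs2 (0.74 each) and Inhbb by Lmo7 (0.90) and Efna1 (0.89). For Ltbp1 they were Il17rc and Trim2 (0.83 each), for Ltbp2 Osr1 (0.80) and Fzd1 (0.79), and for Tgfbi Dnajb14 and Myo5a (0.80 each). These sums share libraries and differ in depth, so the values do not count independent samples.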

How the data were processed

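Single-cell RNA libraries of mammary glands and tumors were read as deposited. Their deposited matrices give whole UMI counts by gene and cell barcode, not normalized, which the authors made with Cell Ranger 3.0.2 (per the file headers) against mm10 with the transgene added. The submitters' processing notes name mm10 with no version of the other tools. One digestion and kit are given for every library by the labels, but another dissociation for tumors and a later kit for Tumor 2 by the paper's methods. Of 23835 barcodes, those with under 200 genes (546) and those with 10% or more mitochondrial UMIs (1045) were left out. The latter were 1.49 to 9.36% of a library, with the highest share in Tumor 2. Barcodes scored as doublets by Scrublet in scanpy 1.11.5 (707) were also left out, which left 21537 cells. Libraries were integrated and clustered in Seurat 5.3.0 (2000 variable genes, 20 dimensions, resolution 0.8). A cluster was named where 3 markers of a list were 1.5-fold above the other cells, a limit set after the markers of the clusters had been seen. 

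UMIs were summed per class and library (at least 10 cells) and tested in R 4.3.3 with edgeR 4.0.16: TMM scaling, filterByExpr, the quasi-likelihood F test with state as the only term over all libraries, two-sided, with Benjamini-Hochberg adjustment over all genes tested. The interaction fit had library, class and class by state. Genes with no reads in a group were compared with a floor of 3 UMIs, and counting intervals cover counting error only. Scaling mattered for the direction of all genes together: with library totals in place of TMM the median log2 change of Tumor against DCIS went from 0.08 to 0.49 in epithelial-like cells (calls 55 up and 131 down, then 113 and 62), from 0.13 to 0.85 in fibroblast-like cells (968 and 679, then 2861 and 425), from -0.02 to 0.35 in endothelial-like cells (731 and 652, then 1172 and 391) and from 0.06 to 0.67 in macrophage-like cells (185 and 310, then 745 and 171).

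The members and the pathway lists were chosen with earlier results of these data known. Members that passed the filter are named in each class tested, with a fold change where a p was under 0.05 and levels otherwise. Up to 5 called genes of a list are named per class and comparison, except in pericyte or smooth muscle-like cells, whose Tumor arm is 1 library. The 2 genes whose levels followed each member most closely are named, of which one each for Tgfbr1 and Tgfbr2 is not reported here. The fits were checked on simulated counts. DESeq2 1.42.0 and the other alternatives are described under the processing results. No label says that a replicate number marks a shared animal or day. Deviations of same-numbered libraries correlated from 0.11 to 0.44 over the pairs of states in fibroblast-like cells, where values with the replicate block are given beside the results, and from -0.11 to 0.42 in epithelial-like, endothelial-like and macrophage-like cells, each with at least 1 pair of states at 0.1 or less. Gene positions are those of GENCODE M21 on GRCm38, which matched 30934 of the 31053 gene identifiers.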

Additional observations from a re-analysis of the deposited data

Results flagged for a closer look

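The results below were picked out because the change of a gene from DCIS to Tumor differed between cell classes in a test of the difference itself. Tgfb2, the ligand gene that fell in epithelial-like cells and rose in fibroblast-like cells, differed by 5.46 on the log2 scale (fibroblast minus epithelial). Tgfb3, also a TGF-beta ligand gene, differed by 4.14 between the same classes. Inhba, the activin A subunit gene, changed in macrophage-like cells by a difference of -4.77 from epithelial-like and of -4.00 from fibroblast-like cells. The type I receptor gene Tgfbr1 differed by 3.27 (macrophage minus fibroblast). The Tgfb2 difference was kept under every alternative run, with adjusted p up to 0.0487, and the other differences were each lost when a DCIS library was left out.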

How the results depend on the processing

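Of the 23 calls on members, 23 were kept under RLE scaling, with the filter on low counts removed and with the listed genes left out of clustering, 22 with library totals in place of TMM and with a mitochondrial limit of 5%, and 15 without integration. DESeq2 gave an adjusted p for 22 and kept all of them, and thinned sums kept 18 of 18. Cells with a transgene UMI left out kept 17 of 19, and fits of only the libraries of the states compared kept 20 of 22. Leaving out 1 library kept 11 of 23 calls without DCIS 2, 13 without Prepuberty 2, 15 without Prepuberty 1 or DCIS 1, and 16 and 17 of 22 without Tumor 1 and Tumor 2. No call reversed. Of 32 changes on members that missed the threshold at an unadjusted p under 0.05, 24 passed with no filter on low counts, 12 with DESeq2, 8 with library totals and 6 of 28 with the replicate block. Without integration, Inhba in endothelial-like cells, which was not called, changed from 2.47 to -0.33 in Tumor against Prepuberty, and the cause was not tested. The 2 libraries per state and the small Tumor sums of endothelial-like (79 and 35 cells) and pericyte or smooth muscle-like cells (19) limit the precision.

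The count of members called in epithelial-like cells in Tumor against DCIS was 1. It was 2 with library totals, 3 with no filter, 2 with DESeq2, 2 with listed genes left out of clustering, and 0 with only the libraries of the states compared and without integration. It ranged from 0 to 2 when one library was left out. Against Prepuberty it was 3, then 5 with no filter, 0 without integration and 0 to 5 with one library left out. For DCIS against Prepuberty it was 0, then 1 with no filter. In fibroblast-like cells the count for Tumor against DCIS was 2, then 5 with no filter, 4 with DESeq2 and 0 to 3 with one library left out. Against Prepuberty it was 3, then 5 with library totals, 6 with no filter, 6 with DESeq2 and 0 to 3 with one library left out. For DCIS against Prepuberty it was 0, then 2 with no filter and 1 with DESeq2. In endothelial-like cells the counts were 3, then 5 with no filter, 5 with DESeq2 and 1 to 4 with one library left out (Tumor against DCIS), 3, then 1 with thinned sums and 1 to 3 with one library left out (Tumor against Prepuberty), and 0, then 1 with no filter (DCIS against Prepuberty).

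In pericyte or smooth muscle-like cells the count for Tumor against DCIS was 1, then 2 with no filter, 0 with DESeq2 (adjusted p not given for Tgfb2), 0 without integration, 0 with the mitochondrial limit of 5% and 1 to 2 with one library left out. Against Prepuberty it was 0, then 2 with no filter, 2 with only the libraries of the states compared and 0 to 2 with one library left out. In macrophage-like cells the count for Tumor against DCIS was 0, then 2 with library totals, 3 with no filter, 1 with only the libraries of the states compared and 0 to 2 with one library left out. Against Prepuberty it was 2, then 4 with no filter and 1 to 4 with one library left out, and for DCIS against Prepuberty 0, then 1 with no filter, 1 with DESeq2 and 0 to 1 with one library left out. For the difference between classes, fibroblast minus epithelial gave 2, and 1 to 3 with one library left out. Macrophage minus epithelial gave 1, then 2 with no filter, 0 without integration and 0 to 1 with one library left out. Macrophage minus fibroblast gave 2, then 1 without integration, 1 without cells with a transgene UMI and 0 to 2 with one library left out.

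The labels number the libraries within a state, and a fit with the replicate number as a block called 0 members in epithelial-like (Tumor against DCIS; Tgfb2 adjusted p = 0.0569), 4 in fibroblast-like (Tumor against DCIS), 2 and 1 in pericyte or smooth muscle-like (against DCIS and Prepuberty) and 1 in macrophage-like cells (Tumor against DCIS). The block kept 17 of 18 calls. Over all genes, DESeq2 called 1655 in place of 186 (epithelial-like, Tumor against DCIS), 2338 in place of 856 (epithelial-like, against Prepuberty), 2657 in place of 1647 and 1899 in place of 1060 (fibroblast-like) and 131 in place of 254 and 124 in place of 208 (pericyte or smooth muscle-like).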

Other observations

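An unnamed cluster of 772 cells was led by Npy, Wnt10a, Acan and Car12. A transgene UMI was found in 53.8% of its cells over all libraries. By library this was 0 and 0% in Prepuberty, 2.70% in DCIS 2 and 75.6 and 63.3% in Tumor. The cluster held Inhba at 30.6 and 13.9 CPM in the Prepuberty libraries, 696 in DCIS 2 and 520 and 200 in Tumor. Tgfbi was at 10.5 and 52.1 CPM in Prepuberty, 53.1 in DCIS 2 and 42.1 and 166 in Tumor. DCIS 1 had only 6 of these cells and gave no value. Another unnamed cluster of 57 cells, led by Sfrp5, Lypd2 and Igfbp6 and without Tumor cells, held Tgfbi at 290 and 319 CPM in Prepuberty and 278 in DCIS 2. An unnamed cluster led by the contractile genes Pln, Myl9 and Myh11, with 518 cells, held Tgfb3 at 36.2 and 31.2 CPM in Prepuberty and 94.1 and 105 in DCIS, and Inhba at 60.2 to 110 CPM in those libraries. These cells entered no class and no test.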
